A study of Saccharomyces cerevisiae with 24 samples.

Results

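TOR complex 1 (TORC1) is the protein kinase complex through which budding yeast, Saccharomyces cerevisiae, adjusts growth to its nutrients. The mRNA levels of 10 genes of the complex and its effectors were followed here, of 5449 genes on the array. They are the kinase genes TOR1 and TOR2, the subunit genes KOG1, LST8 and TCO89, and the effector genes SCH9, TAP42, SIT4, TIP41 and NPR1. The genes were matched by symbol in the array's annotation and not by a filter on their values, though earlier results of these data were known. Each of the 10 had 1 probe set.

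The 24 cultures fell into 8 groups of 3, formed by 4 strains and 2 limiting nutrients. The strains were snf1Δtor1Δ, tor1Δ, snf1Δ and a wild-type reference strain, and each was grown under ammonia limitation (N-lim, 1 g/L ammonium sulfate) and under glucose limitation (C-lim, 10 g/L glucose). All groups shared aerobic continuous culture at 30 °C, pH 5.0 and a dilution rate of 0.1 per hour, so growth rate was set alike in every strain and medium. SNF1 encodes the yeast AMP-activated protein kinase, which is needed for growth on carbon sources other than glucose. The series' design text calls the cultures of a group biological replicates; the strain background and the number of clones behind each deletion are not stated in the labels, so the effect of a deletion and that of its clone cannot be told apart.

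In yeast, active TORC1 promotes ribosome production and translation and holds back nitrogen-starvation responses and autophagy. Amino acids reach it through the Rag-type GTPases of the EGO complex at the vacuole, and the SEA complex acts on those GTPases. Its signal leaves through the kinase Sch9 and through Tap42, a partner of type 2A and 2A-like phosphatases such as Sit4. These arms are known from protein activity and phosphorylation, whereas the measurements here are of mRNA. Each culture was a bulk sample, so a change in the share of cells that express a gene and a change in RNA per cell cannot be told apart.

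The values are log2 signals from 1 Affymetrix array per culture, normalized by the authors, and a difference of 1 is a doubling. Array medians lay between 7.792 and 7.971, and arrays of a group correlated at 0.9934 to 0.9987 across genes, which are not independent replicates. A log2 signal under 3 was taken as the floor of the array. Changes were tested with limma across all 5449 genes, and "called" means a Benjamini-Hochberg adjusted p under 0.05. Values after ± are SD for levels (n = 3 cultures) and standard errors for changes. Depending on the comparison, the arrays of 2 groups did not overlap for 13.6% to 68.6% of all genes.

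The 2 deletions were checked first. TOR1 (YJR066W) lay at 2.27 in all 12 arrays of snf1Δtor1Δ and tor1Δ, under the floor, against 7.86 ± 0.010 under N-lim and 6.94 ± 0.155 under C-lim in the reference strain. It was therefore at least 29.1-fold lower under N-lim and at least 15.4-fold lower under C-lim in the strains that lack it. SNF1 (YDR477W) lay at 2.15 in all arrays of snf1Δtor1Δ and snf1Δ, against 8.90 ± 0.149 under N-lim and 8.75 ± 0.044 under C-lim in the reference strain. Every array thus matched its genotype label. In the RefSeq table of assembly R64 the genes beside TOR1 are ARP3 and YAE1, and neither was called in tor1Δ against the reference strain. In snf1Δtor1Δ against the reference strain, ARP3 changed by -0.28 under N-lim (adjusted p = 0.000777) and YAE1 by 0.26 under C-lim (adjusted p = 0.00851).

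**Figure D1:**
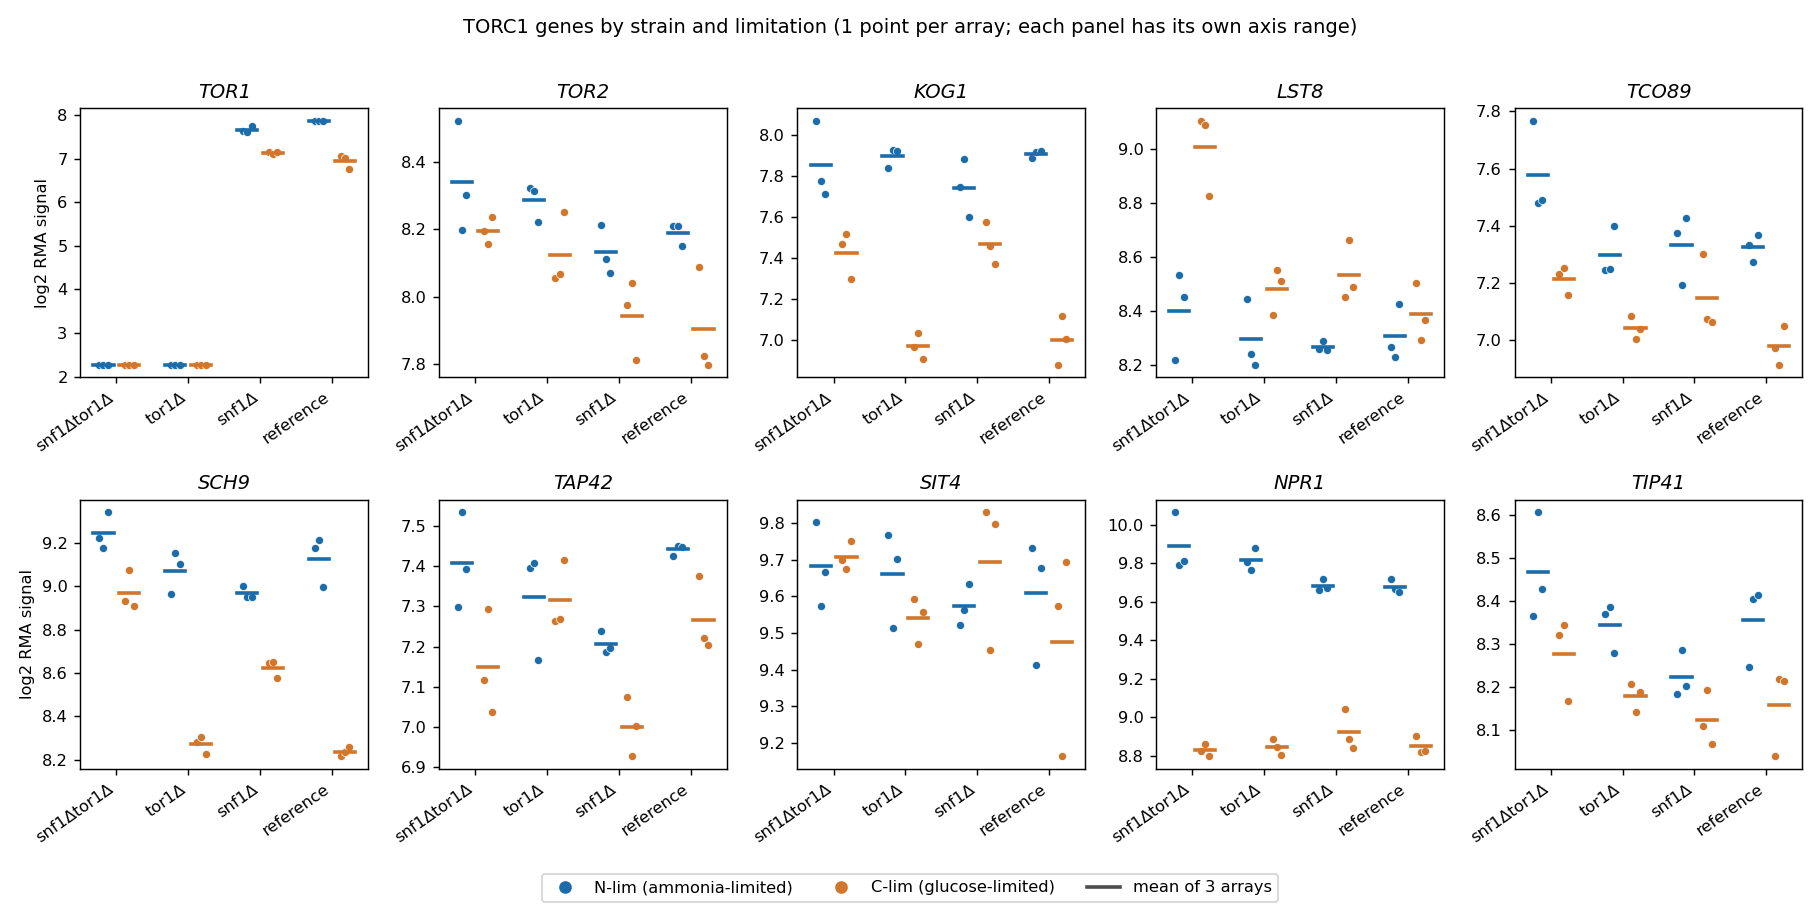
Log2 RMA signal (y axis) of the 10 genes in each of the 24 arrays, by strain (x axis), with N-lim arrays in blue left of C-lim arrays in orange; bars are means of 3 arrays and each panel has its own range. TOR1 sits at 2.27 in both strains that lack it, NPR1 separates by medium in every strain, and SCH9 and KOG1 separate by medium less in the strains that lack SNF1.

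Which genes of the complex respond to the limiting nutrient was the first question. NPR1, KOG1 and SCH9 rose under N-lim in each of the 4 strains, and SIT4 was called in none of them. In snf1Δtor1Δ, 6 of 9 genes rose and LST8 fell under N-lim, while 35.3% of all genes rose and 23.2% fell (58.6% called). In tor1Δ, 5 of 9 rose and 0 fell, while 37.4% of all genes rose and 27.5% fell (64.9% called). In snf1Δ, 5 of 10 rose and LST8 fell, while 32.4% of all genes rose and 23.0% fell (55.4% called). With shares this large over all genes, the counts alone do not set the 10 genes apart.

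In the reference strain 8 of the 10 genes rose under N-lim and 0 fell, while 41.5% of all genes rose and 25.7% fell (67.2% called). TOR1, KOG1, SCH9 and NPR1 rose most, by 1.78-fold to 1.89-fold. LST8 (-0.08, adjusted p = 0.468) and SIT4 (0.13, adjusted p = 0.357) were not called. The median change of the 10 genes was 0.32, against 0.08 for all genes, where rises and falls offset each other. Without regard to sign, the median change was 0.32 for the 10 genes and 0.34 for all genes. Over all genes, 2259 were called higher and 1402 lower; after every array was set to 1 median, which lowered every change by 0.106, these were 1845 and 2024, and 5 of the 10 genes (TOR1, KOG1, TCO89, SCH9 and NPR1) were still called.

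**Figure D2:**
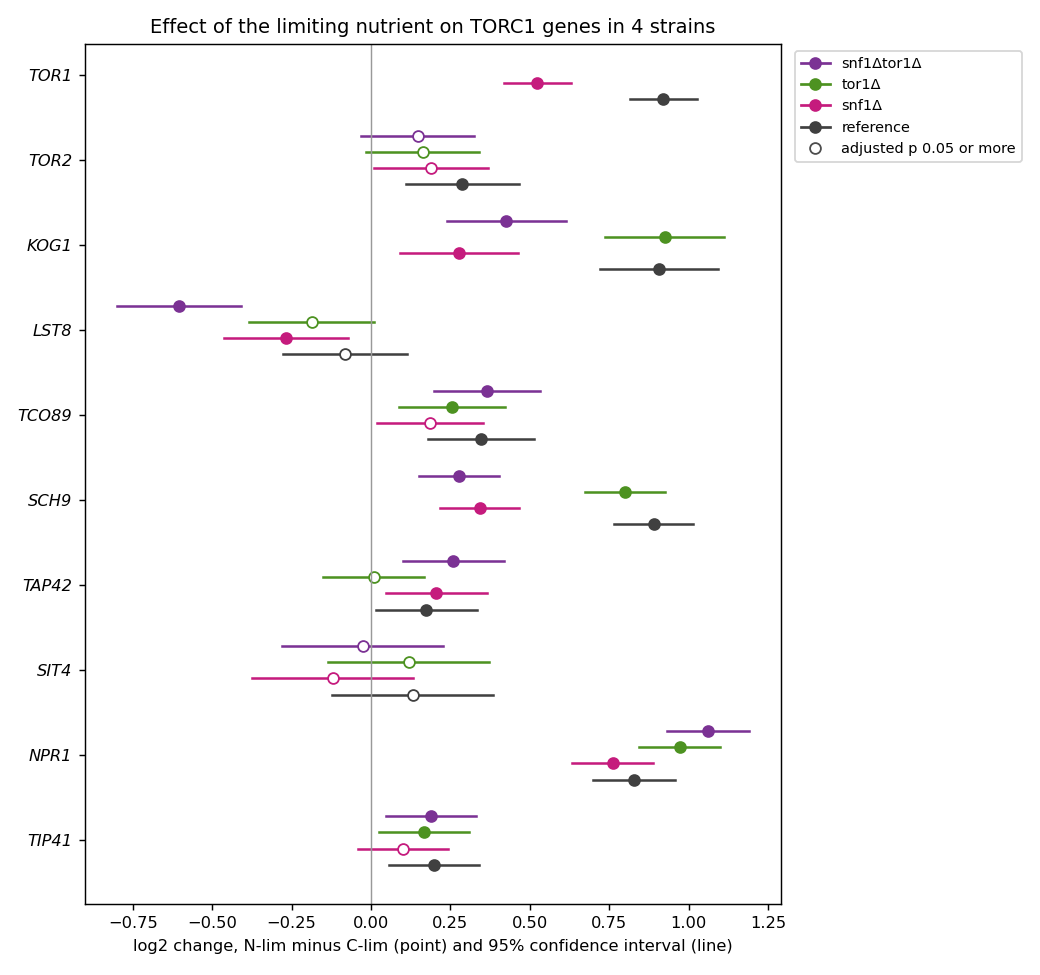
Log2 change under N-lim relative to C-lim (x axis; points) with its 95% confidence interval (lines) for each gene in snf1Δtor1Δ, tor1Δ, snf1Δ and the reference strain; open points have an adjusted p of 0.05 or more. For KOG1 and SCH9 the strains with SNF1 lie between 0.80 and 0.92 and those without it between 0.28 and 0.43, whereas NPR1 lies between 0.76 and 1.06 in all 4 strains.

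TOR1 encodes the kinase subunit that is particular to TORC1 and is not essential, because Tor2 can take its place. In snf1Δ it stood at 7.64, 7.61 and 7.74 under N-lim, against 7.16, 7.11 and 7.14 under C-lim. In the reference strain it stood at 7.85, 7.86 and 7.87 under N-lim, against 7.05, 7.01 and 6.76 under C-lim. All N-lim arrays were above all C-lim arrays in both strains, and the 4 group means ran from reference N-lim through snf1Δ N-lim and snf1Δ C-lim to reference C-lim with no overlap between neighbours. The rise under N-lim was 0.52 ± 0.050 in snf1Δ (1.44-fold, adjusted p = 5.56e-08) and 0.92 ± 0.050 in the reference strain (1.89-fold, adjusted p = 1.06e-11). Of all genes, 15.6% changed by more than TOR1 in the reference strain. The rise in snf1Δ was the smaller (interaction -0.40 ± 0.071, adjusted p = 0.000151). This difference had parts from both media: TOR1 was lower in snf1Δ under N-lim (-0.20 ± 0.050, adjusted p = 0.00533) and higher in snf1Δ under C-lim (0.20 ± 0.050, adjusted p = 0.0022). The C-lim call was lost when only those 2 groups were fitted (adjusted p = 0.0993).

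TOR2 (YKL203C) encodes the essential Tor kinase, which serves in TORC1 and is the kinase of TOR complex 2 (TORC2). In the 3 deletion strains the changes under N-lim were 0.15 in snf1Δtor1Δ, 0.16 in tor1Δ and 0.19 in snf1Δ, with adjusted p-values of 0.15, 0.102 and 0.0677 in that order. Each was called in only 1 of 6 fits that left out 1 culture. These were the fits without N-lim replicate 02 in snf1Δtor1Δ (0.22, adjusted p = 0.0461), C-lim replicate 09 in tor1Δ (0.23, adjusted p = 0.0402) and C-lim replicate 11 in snf1Δ (0.24, adjusted p = 0.0422). Over the 6 fits the highest adjusted p was 0.625 in snf1Δtor1Δ, 0.261 in tor1Δ and 0.281 in snf1Δ. In the reference strain it stood at 8.21, 8.21 and 8.15 under N-lim, against 8.09, 7.82 and 7.80 under C-lim. The N-lim arrays were all higher, with C-lim replicate 09 closest to them. The rise there was 0.29 ± 0.085 (1.22-fold, adjusted p = 0.00583), and it was not called after the arrays were set to 1 median (0.18, adjusted p = 0.0638).

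KOG1 (YHR186C) encodes the essential TORC1 scaffold, the counterpart of mammalian Raptor. Under N-lim it stood at 7.84, 7.93 and 7.92 in tor1Δ and at 7.88, 7.92 and 7.92 in the reference strain. Under C-lim it stood at 6.97, 7.03 and 6.91 in tor1Δ and at 6.88, 7.12 and 7.01 in the reference strain. The rise under N-lim was thus 1.90-fold in tor1Δ (0.92 ± 0.089, adjusted p = 3.63e-08) and 1.87-fold in the reference strain (0.91 ± 0.089, adjusted p = 4.34e-08). In the strains without SNF1 the C-lim level was higher and the rise smaller. KOG1 stood at 8.07, 7.78 and 7.71 under N-lim, against 7.47, 7.51 and 7.30 under C-lim in snf1Δtor1Δ (0.43 ± 0.089, adjusted p = 0.000435). In snf1Δ it stood at 7.75, 7.88 and 7.60 under N-lim, against 7.57, 7.46 and 7.37 under C-lim (0.28 ± 0.089, adjusted p = 0.0129). The groups did not overlap in either strain, but the call in snf1Δ was lost without C-lim replicate 12 or N-lim replicate 10 (highest adjusted p = 0.0785). By the interaction test the rise was smaller than in the reference strain in snf1Δtor1Δ (-0.48 ± 0.125, adjusted p = 0.00412) and in snf1Δ (-0.63 ± 0.125, adjusted p = 0.000431).

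LST8 (YNL006W), whose WD-repeat protein binds the kinase domain in both Tor complexes, ran the other way. In snf1Δtor1Δ it stood at 8.22, 8.53 and 8.45 under N-lim, against 9.10, 9.09 and 8.83 under C-lim. The 3 C-lim arrays were the highest of all 24 for this gene and did not overlap with the other groups. The change under N-lim was -0.60 ± 0.093 (adjusted p = 1.93e-05). In snf1Δ it stood at 8.26, 8.29 and 8.26 under N-lim, against 8.45, 8.66 and 8.49 under C-lim. That change was -0.27 ± 0.093 (adjusted p = 0.0208), and the call was lost without C-lim replicate 11, N-lim replicate 09 or N-lim replicate 11 (highest adjusted p = 0.107). In tor1Δ the values were 8.45, 8.24 and 8.20 under N-lim, against 8.39, 8.55 and 8.51 under C-lim, and in the reference strain 8.27, 8.23 and 8.43 under N-lim, against 8.50, 8.29 and 8.37 under C-lim. The media overlapped in these 2 strains. The change in tor1Δ was -0.19 ± 0.093 (adjusted p = 0.0882); it was called after the arrays were set to 1 median (-0.23, adjusted p = 0.0376), after a further quantile normalization (-0.21, adjusted p = 0.0481) and without N-lim replicate 09 (-0.26, adjusted p = 0.0297). The change in snf1Δtor1Δ differed from that in the reference strain by -0.52 ± 0.132 (interaction, adjusted p = 0.00314).

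TCO89 (YPL180W) encodes a TORC1 subunit that is found in fungi and is not essential. It rose under N-lim by 0.37 ± 0.079 in snf1Δtor1Δ (adjusted p = 0.000626), by 0.26 ± 0.079 in tor1Δ (adjusted p = 0.00838) and by 0.35 ± 0.079 in the reference strain (adjusted p = 0.000777). In snf1Δ it stood at 7.38, 7.19 and 7.43 under N-lim, against 7.30, 7.07 and 7.06 under C-lim, and the 2 media overlapped. The change there was 0.19 ± 0.079 and just missed the threshold (adjusted p = 0.0548). It was called without C-lim replicate 10 (0.26, adjusted p = 0.0111) or N-lim replicate 10 (0.26, adjusted p = 0.0157), and when dim genes were left out (adjusted p = 0.0498). No interaction with the medium was called for this gene, so the 4 strains' changes were not shown to differ.

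SCH9 (YHR205W) encodes the kinase that TORC1 phosphorylates directly and that promotes ribosome production, a counterpart of mammalian S6 kinase. Under N-lim it lay in a narrow band: 9.22, 9.18 and 9.34 in snf1Δtor1Δ, 8.96, 9.15 and 9.10 in tor1Δ, 9.002, 8.95 and 8.95 in snf1Δ, and 9.18, 9.21 and 8.99 in the reference strain. Under C-lim the strains spread out. SCH9 stood there at 8.93, 9.07 and 8.91 in snf1Δtor1Δ, 8.28, 8.31 and 8.23 in tor1Δ, 8.65, 8.65 and 8.57 in snf1Δ, and 8.22, 8.24 and 8.26 in the reference strain. The C-lim groups of snf1Δtor1Δ and snf1Δ were each apart from all others under C-lim, and tor1Δ overlapped with the reference strain. The rise under N-lim was 0.28 ± 0.060 in snf1Δtor1Δ (adjusted p = 0.000617), 0.80 ± 0.060 in tor1Δ (adjusted p = 1.1e-09), 0.34 ± 0.060 in snf1Δ (adjusted p = 8.24e-05) and 0.89 ± 0.060 in the reference strain (1.85-fold, adjusted p = 2.19e-10). In snf1Δtor1Δ, where cultures share replicate numbers across the media, the rise was not called with the number as a block (adjusted p = 0.0566). Against the reference strain the rise was smaller in snf1Δtor1Δ (interaction -0.61 ± 0.084, adjusted p = 9.27e-06) and in snf1Δ (interaction -0.55 ± 0.084, adjusted p = 3.37e-05).

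The phosphatase arm moved little. Tap42 (YMR028W) binds type 2A and Sit4 phosphatases when TORC1 is active, Sit4 (YDL047W) is the catalytic subunit of a 2A-like phosphatase, and Tip41 (YPR040W) binds Tap42 and opposes TORC1 signalling. TAP42 changed under N-lim by 0.26 ± 0.076 in snf1Δtor1Δ (adjusted p = 0.0066), 0.01 ± 0.076 in tor1Δ (adjusted p = 0.942), 0.21 ± 0.076 in snf1Δ (adjusted p = 0.0276) and 0.17 ± 0.076 in the reference strain (adjusted p = 0.0497). The call in the reference strain was at the threshold and was lost in 10 of 15 alternatives. It was lost without C-lim replicate 10 or 11 or any N-lim replicate (highest adjusted p = 0.153) and with the replicate number as a block (adjusted p = 0.0752). The change fell to 0.07 after the arrays were set to 1 median (adjusted p = 0.398) and to 0.08 after a further quantile normalization (adjusted p = 0.301). Leaving out floor genes (adjusted p = 0.052) or a trended robust fit (adjusted p = 0.0559) also lost it. In snf1Δ the call was lost without C-lim replicate 11 or 12 or N-lim replicate 09 or 11 (highest adjusted p = 0.109). It was also lost there after the arrays were set to 1 median (0.16, adjusted p = 0.0595). In snf1Δtor1Δ the call was lost when only those 2 groups were fitted (adjusted p = 0.0583). TIP41 rose by 0.17 to 0.20 in snf1Δtor1Δ, tor1Δ and the reference strain, with adjusted p-values of 0.0218, 0.0372 and 0.0143 in that order. None of these 3 calls held after the arrays were set to 1 median, where the adjusted p-values were 0.144, 0.132 and 0.255. They were also lost without C-lim replicate 03 or N-lim replicate 02 in snf1Δtor1Δ (highest adjusted p = 0.145), without C-lim replicate 08 or 09 or N-lim replicate 09 or 10 in tor1Δ (highest adjusted p = 0.111), and without C-lim replicate 09 or N-lim replicate 10 or 11 in the reference strain (highest adjusted p = 0.0937). In snf1Δtor1Δ the TIP41 change had an adjusted p of 0.0822 with the replicate number as a block. SIT4 was the least variable in its means, with 8 group means within 0.23, and it was called in none of the 19 comparisons drawn in all. Its arrays varied most within groups among the 10 genes (root mean square SD 0.153, against 0.073 to 0.118 for the others). The lack of calls therefore does not show that it was stable.

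NPR1 (YNL183C) encodes a kinase that stabilizes amino acid and ammonium permeases and that TORC1 keeps inhibited. Under N-lim it stood at 10.07, 9.79 and 9.81 in snf1Δtor1Δ, 9.81, 9.76 and 9.88 in tor1Δ, 9.66, 9.72 and 9.67 in snf1Δ, and 9.72, 9.66 and 9.65 in the reference strain. Under C-lim it stood at 8.83, 8.86 and 8.80 in snf1Δtor1Δ, 8.89, 8.85 and 8.80 in tor1Δ, 9.04, 8.88 and 8.84 in snf1Δ, and 8.90, 8.82 and 8.82 in the reference strain. Every one of the 12 N-lim arrays was above every one of the 12 C-lim arrays. The rise was 1.06 ± 0.061 in snf1Δtor1Δ (2.09-fold, adjusted p = 5.19e-11), 0.97 ± 0.061 in tor1Δ (1.96-fold, adjusted p = 1.01e-10), 0.76 ± 0.061 in snf1Δ (1.69-fold, adjusted p = 5.35e-09) and 0.83 ± 0.061 in the reference strain (1.78-fold, adjusted p = 8.75e-10). In snf1Δtor1Δ, 7.16% of all genes changed by more than NPR1. The rise in snf1Δtor1Δ exceeded that in the reference strain by 0.23 ± 0.087 (interaction, adjusted p = 0.0345). That call depended on single cultures and on the groups fitted. It was lost without N-lim replicate 01 or C-lim replicate 01 or 03 of snf1Δtor1Δ, or without N-lim replicate 10 or 11 or C-lim replicate 09 of the reference strain. Over all 12 single omissions the values were 0.14 to 0.28 and the highest adjusted p was 0.0956. The call was also lost when only the groups of the comparison were fitted (adjusted p = 0.0764).

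Whether deleting SNF1 alters these genes was asked within each medium. Under C-lim, KOG1, SCH9 and TOR1 rose in snf1Δ relative to the reference strain and TAP42 fell, which made 4 of 10 genes (62.1% of all genes called). KOG1 was higher by 0.46 ± 0.089 (1.38-fold, adjusted p = 0.000177) and SCH9 by 0.39 ± 0.060 (1.31-fold, adjusted p = 1.86e-05), with no overlap of the arrays for either gene. Arrays of these 2 groups did not overlap for 61.6% of all genes. TAP42 stood at 7.07, 6.93 and 7.002 in snf1Δ, against 7.38, 7.22 and 7.20 in the reference strain, a change of -0.27 ± 0.076 (adjusted p = 0.00512). All 3 snf1Δ arrays were below all 3 reference arrays. SIT4 had a change of 0.22 that was not called (adjusted p = 0.129), but it was called without snf1Δ replicate 11 (0.34, adjusted p = 0.025) or reference replicate 11 (0.33, adjusted p = 0.0341).

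Under N-lim none of the 10 genes rose in snf1Δ, and 3 fell relative to the reference strain: TOR1, TAP42 and SCH9 (31.1% of all genes called). TAP42 stood at 7.24, 7.19 and 7.20 in snf1Δ, against 7.43, 7.45 and 7.45 in the reference strain, a change of -0.23 ± 0.076 (adjusted p = 0.0243). The snf1Δ arrays were all lower, but the call was lost without replicate 10 or 11 of either strain (highest adjusted p = 0.0684). SCH9 changed by -0.16 ± 0.060 (adjusted p = 0.0494). This call was lost in 12 of 15 alternatives: without reference replicate 09 or 10 or any snf1Δ replicate (highest adjusted p = 0.200), with the replicate number as a block (adjusted p = 0.0846), under both further scalings (adjusted p = 0.124 and 0.115), without dim genes or floor genes, with a trended robust fit, and with the 2 groups fitted alone (adjusted p = 0.0595 to 0.0926 over these 4). TAP42 was thus lower in snf1Δ in both media, whereas TOR1 and SCH9 fell under N-lim and rose under C-lim. KOG1 rose under C-lim and had a change of -0.17 ± 0.089 under N-lim that was not called (adjusted p = 0.173). The medium interactions given above test the difference between the media for these 3 genes (47.2% of all genes called, 3 of 10 here, all negative).

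Deleting TOR1 alone left the other 9 genes without a call in either medium. Under C-lim, 0 of 9 were called in tor1Δ against the reference strain by limma (1.06% of all genes called). Of all genes 13.8% had an unadjusted p under 0.05, and of the 9 genes 1 had. That gene was TOR2, at 8.05, 8.07 and 8.25 in tor1Δ, against 8.09, 7.82 and 7.80 in the reference strain, with overlapping arrays and a change of 0.22 ± 0.085 (adjusted p = 0.238). Under N-lim, 0 of 9 were called by limma (2.92% of all genes called). Of all genes 14.1% had an unadjusted p under 0.05, and of the 9 genes again 1 had. It was NPR1, with a change of 0.14 ± 0.061 (adjusted p = 0.301). The 95% confidence intervals of the 9 changes ran from -0.22 to 0.40 under C-lim and from -0.28 to 0.31 under N-lim, so changes inside those bounds are not excluded by these cultures. The effect of the medium did not pass the test of a difference between tor1Δ and the reference strain for any of the 9 genes (0.973% of all genes called). Of the 9, 0 had an unadjusted p under 0.05, against 11.9% of all genes.

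**Figure D3:**
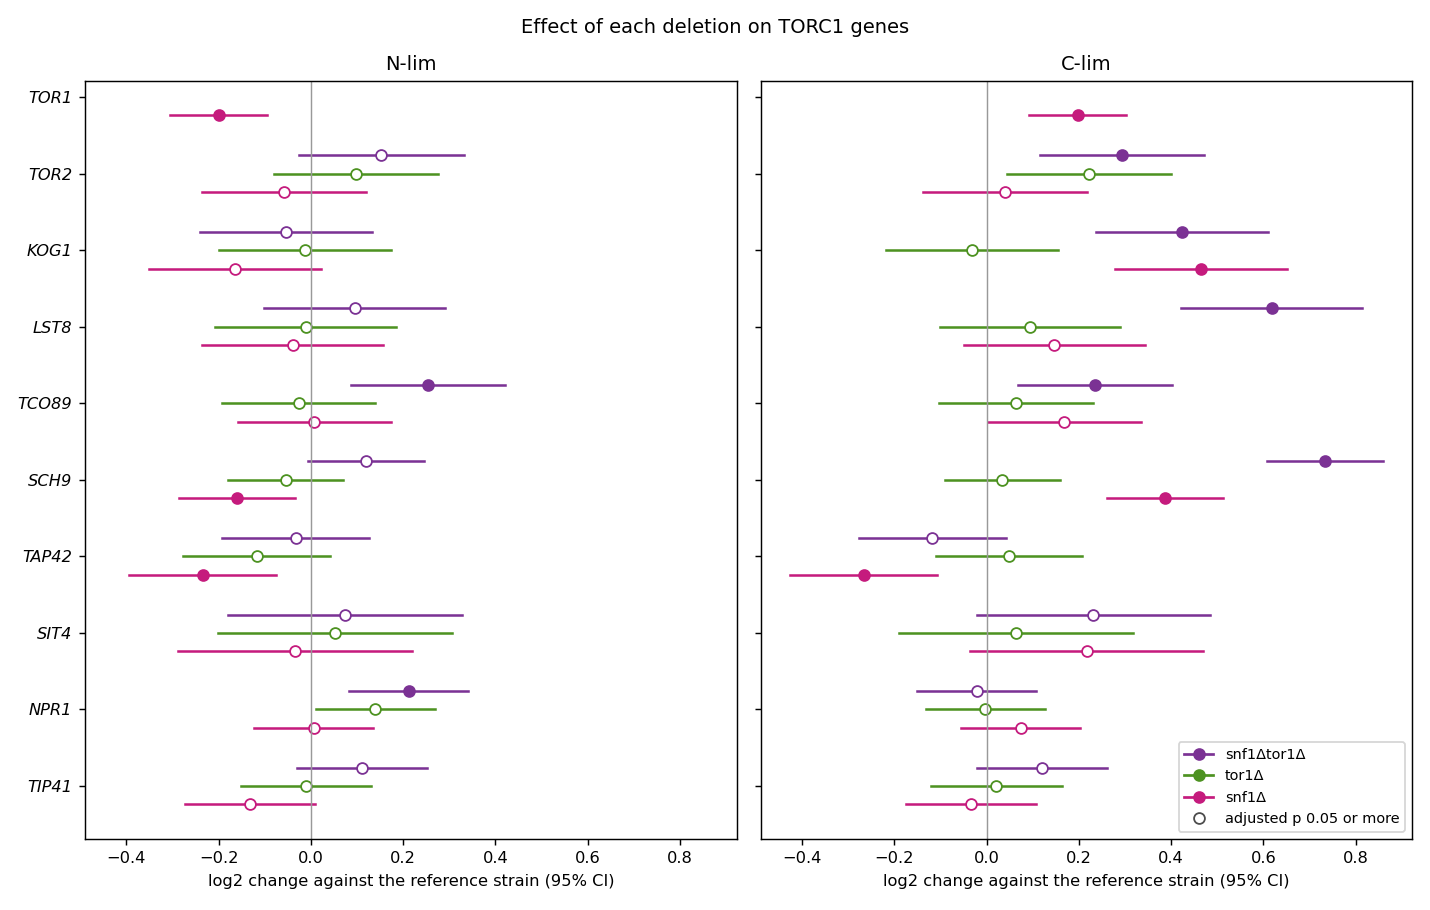
Log2 change of each gene against the reference strain (x axis; points) with its 95% confidence interval (lines) for snf1Δtor1Δ, tor1Δ and snf1Δ, under N-lim (left) and C-lim (right); open points have an adjusted p of 0.05 or more, and TOR1 is shown for snf1Δ alone. SCH9 under C-lim reaches 0.73 in snf1Δtor1Δ and 0.39 in snf1Δ, and every tor1Δ point is open.

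The strain lacking both kinases was then compared with the reference strain. Under C-lim, 5 of 9 genes rose in snf1Δtor1Δ and 0 fell (61.4% of all genes called). SCH9 rose by 0.73 ± 0.060 (1.66-fold, adjusted p = 6.83e-09), LST8 by 0.62 ± 0.093 (1.53-fold, adjusted p = 1.52e-05), KOG1 by 0.42 ± 0.089 (adjusted p = 0.000425) and TOR2 by 0.29 ± 0.085 (adjusted p = 0.00577). TCO89 stood at 7.23, 7.25 and 7.16 in snf1Δtor1Δ, against 6.97, 6.91 and 7.05 in the reference strain, a rise of 0.23 ± 0.079 (adjusted p = 0.0153). The TCO89 arrays did not overlap, yet the call was lost under both further scalings (adjusted p = 0.0802 and 0.108) and without reference replicate 10 or snf1Δtor1Δ replicate 02 (highest adjusted p = 0.0586). TAP42 had a change of -0.12 (adjusted p = 0.19), which was called after the arrays were set to 1 median (-0.20, adjusted p = 0.0208), after the quantile step (-0.21, adjusted p = 0.0128) and without snf1Δtor1Δ replicate 02 (-0.19, adjusted p = 0.0472). The other values not called were 0.23 for SIT4, 0.12 for TIP41 and -0.02 for NPR1; SIT4 was called without reference replicate 11 (0.34, adjusted p = 0.0281) and TIP41 without snf1Δtor1Δ replicate 03 (0.17, adjusted p = 0.0441).

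Under N-lim, 2 of 9 genes rose in snf1Δtor1Δ relative to the reference strain, TCO89 and NPR1 (40.3% of all genes called). TCO89 stood at 7.77, 7.48 and 7.49 in snf1Δtor1Δ, against 7.33, 7.27 and 7.37 in the reference strain, a rise of 0.25 ± 0.079 (adjusted p = 0.0158). NPR1 rose by 0.21 ± 0.061 (adjusted p = 0.00989). In both genes the arrays did not overlap, as for 49.6% of all genes, and snf1Δtor1Δ replicate 01 was the highest. Without that replicate neither was called (0.16, adjusted p = 0.113 for TCO89; 0.12, adjusted p = 0.071 for NPR1), and TCO89 was also lost without reference replicate 10. Replicate 01 was the highest of its group for 5 of the 9 genes, with a median deviation of 0.122 from the group means, against 0.0024 over all genes. It was the lowest for LST8, TAP42 and TIP41. Under C-lim, snf1Δtor1Δ replicate 02 was the highest of its group for 6 of the 9 genes.

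The change of medium differed between snf1Δtor1Δ and the reference strain for 4 of 9 genes (46.7% of all genes called). It was smaller or more negative in snf1Δtor1Δ for KOG1, LST8 and SCH9 and larger for NPR1, with the values given above.

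Adding the TOR1 deletion to snf1Δ gave a further comparison, of cells that all lack SNF1. Under C-lim 3 of 9 genes rose in snf1Δtor1Δ relative to snf1Δ (17.2% of all genes called). LST8 rose by 0.47 ± 0.093 (1.39-fold, adjusted p = 0.00202), and 4.88% of all genes changed by more. SCH9 rose by 0.35 ± 0.060 (1.27-fold, adjusted p = 0.000707), and 9.73% of all genes changed by more. TOR2 rose by 0.25 ± 0.085 (adjusted p = 0.0477), a call lost without snf1Δ replicate 10 or 12 or any snf1Δtor1Δ replicate (highest adjusted p = 0.196). For all 3 genes the arrays of the 2 strains did not overlap, as for 35.4% of all genes. When only these 2 groups were fitted, LST8 (adjusted p = 0.0529) and TOR2 were not called.

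Under N-lim, 3 of 9 genes rose in snf1Δtor1Δ relative to snf1Δ (10.6% of all genes called). SCH9 rose by 0.28 ± 0.060 (adjusted p = 0.00669), which missed the threshold after the arrays were set to 1 median (0.22, adjusted p = 0.0561). TIP41 stood at 8.36, 8.61 and 8.43 in snf1Δtor1Δ, against 8.18, 8.29 and 8.20 in snf1Δ, a rise of 0.24 ± 0.067 (adjusted p = 0.0285). NPR1 rose by 0.21 ± 0.061 (adjusted p = 0.0394). Neither TIP41 nor NPR1 was called under the 2 further scalings. TIP41 was lost without snf1Δ replicate 09 or 11 or snf1Δtor1Δ replicate 02 (highest adjusted p = 0.110), and NPR1 without any snf1Δ replicate or snf1Δtor1Δ replicate 01 (highest adjusted p = 0.193). TCO89, at 0.25, had an adjusted p of 0.0539 and was called without snf1Δtor1Δ replicate 02 or 03 (0.30, lowest adjusted p = 0.0407).

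Adding the SNF1 deletion to tor1Δ raised 3 of 9 genes under C-lim (56.0% of all genes called): SCH9 by 0.70 ± 0.060 (adjusted p = 1.51e-08), LST8 by 0.52 ± 0.093 (adjusted p = 0.000105) and KOG1 by 0.46 ± 0.089 (adjusted p = 0.000253). TAP42 had a change of -0.17 (adjusted p = 0.0708) that was called under both further scalings (-0.21 each, adjusted p = 0.0199 and 0.0153) and without snf1Δtor1Δ replicate 02 (-0.24, adjusted p = 0.0168). Under N-lim, 2 of 9 genes rose in snf1Δtor1Δ relative to tor1Δ, TCO89 by 0.28 ± 0.079 (adjusted p = 0.0108) and SCH9 by 0.17 ± 0.060 (adjusted p = 0.0309), with 33.5% of all genes called. TCO89 was not called without snf1Δtor1Δ replicate 01 (0.19, adjusted p = 0.074), nor with the 2 groups fitted alone (adjusted p = 0.089). SCH9 was not called without snf1Δtor1Δ replicate 03 or tor1Δ replicate 09 (highest adjusted p = 0.161), with arrays set to 1 median (0.11, adjusted p = 0.231), after the quantile step (0.15, adjusted p = 0.0847) or with the 2 groups fitted alone (adjusted p = 0.128).

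The design also allows a test of whether the double deletion departs from the sum of the single deletions on the log2 scale. Under C-lim 1 of 9 genes was called (5.74% of all genes called). SCH9 lay 0.31 ± 0.084 above the sum (adjusted p = 0.0356): the change from the reference strain was 0.73 in snf1Δtor1Δ, 0.03 in tor1Δ and 0.39 in snf1Δ. The estimate stayed between 0.26 and 0.34 when single cultures were left out, but the call was lost in 8 of 12 such fits (highest adjusted p = 0.0992), namely without snf1Δtor1Δ replicate 01 or 02, tor1Δ replicate 07 or 09, snf1Δ replicate 10 or 12, or reference replicate 09 or 11. It also just missed the threshold under the 2 further scalings (adjusted p = 0.0578 and 0.0526). LST8 lay 0.38 above the sum (adjusted p = 0.108), and was called without snf1Δtor1Δ replicate 03 (0.47, adjusted p = 0.0345). Under N-lim 0 of 9 genes were called by limma (0.697% of all genes called). An unadjusted p under 0.05 was found for 4 of the 9 and for 13.7% of all genes. SCH9 had a departure of 0.34 there (adjusted p = 0.0728), called without reference replicate 11 (0.40, adjusted p = 0.0308). Comparisons against the same strain share its arrays, so their values are given side by side and were not correlated.

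Genes around the complex were read from 8 lists with 73 genes. Under N-lim 32 rose and 12 fell in snf1Δ, where 32.4% of all genes rose and 23.0% fell. In the reference strain 39 rose and 14 fell, where 41.5% of all genes rose and 25.7% fell. The median change there was 0.27, against 0.08 for all genes. The counts below for the medium in these 2 strains are to be read against those shares.

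The SEA complex, which acts on the Rag-type GTPases, had 4 of 8 genes up under N-lim in snf1Δ, against 6 of 8 in the reference strain, and 0 down in either. IML1, NPR3 and NPR2 form its inhibitory arm towards TORC1. In the reference strain IML1 rose by 1.52 ± 0.060 (adjusted p = 1.12e-13), NPR3 by 1.35 ± 0.074 (adjusted p = 1.17e-11), RTC1 by 1.04 and NPR2 by 1.03. The rise was smaller in snf1Δ than in the reference strain for IML1 (interaction -0.63 ± 0.085, adjusted p = 8.01e-06) and for NPR3 (interaction -0.58 ± 0.105, adjusted p = 0.000182). IML1 and NPR3, like TOR1, were lower in snf1Δ than in the reference strain under N-lim (-0.37 for IML1 and -0.26 for NPR3) and higher under C-lim (0.26 for IML1 and 0.32 for NPR3). Under C-lim 6 of 8 genes of the list rose in snf1Δ, or 4 after either further scaling (62.1% of all genes called, 2207 higher and 1176 lower), and under N-lim 4 of 8 fell (31.1% of all genes called, 766 higher and 928 lower). IML1 was also the only one of the 73 genes called in tor1Δ against the reference strain under C-lim (0.28 ± 0.060, adjusted p = 0.0289), a call that was lost in 6 alternatives (highest adjusted p = 0.291): both further scalings, the 2 groups fitted alone, and without tor1Δ replicate 08 or 09 or reference replicate 11. Of the 73 genes, 0 were called under N-lim in tor1Δ.

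The Npr1 branch holds arrestin-like adaptors of the ubiquitin ligase Rsp5, among them BUL1, BUL2, ALY1 and ALY2. In snf1Δ 1 of its 8 genes rose under N-lim, ALY1, and 1 fell, NNK1. In the reference strain 5 of 8 rose and 2 fell. ALY1 rose there by 1.13 ± 0.039 (adjusted p = 1.75e-14), BUL2 by 0.67 and BUL1 by 0.64, and NNK1, a kinase gene, changed by -0.78. The interaction of snf1Δ with the medium was negative and called for 5 of the 8 (47.2% of all genes called, 1690 of them negative).

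Of the 5 genes of the GATA list, 4 rose under N-lim in the reference strain: DAL80, a repressor of nitrogen-regulated genes, by 8.02 ± 0.121, GAT1, an activator, by 1.69 ± 0.100, GZF3 by 0.71 and GLN3 by 0.29. The EGO list, with the Rag-type GTPases GTR1 and GTR2, had 4 of 9 genes up (GTR2 by 0.54, GTR1 by 0.46, LST7 by 0.32 and EGO2 by 0.25) and 1 down (MEH1, -0.33). After either further scaling 2 of the 4 were still called; EGO2 and LST7 were the 2 lost, and LST7 was also lost without reference C-lim replicate 11. TORC2 and its kinases had 3 of 9 up and 2 down, with AVO1 at 0.78 and YPK2 at -1.93. Both further scalings gave 3 up and 3 down.

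In the list of type 2A phosphatases and their partners 8 of 13 genes rose and 2 fell, with changes of 0.56 for SAP190 and 0.44 for SAP185, which encode Sit4-associated proteins. SAP4, which encodes another Sit4 partner, was higher in snf1Δ than in the reference strain under N-lim (0.75 ± 0.142, adjusted p = 0.000529) and under C-lim (1.05 ± 0.142, adjusted p = 4.22e-06). In the list of the Sch9 branch and growth or stress factors, 8 of 18 genes rose under N-lim in the reference strain and 6 fell. These counts are close to the shares of all genes (41.5% and 25.7%) and are no result about this list. MSN4, a stress activator gene, rose by 2.54 ± 0.098 and CRF1, which encodes a corepressor of ribosomal protein genes, was at least 12.4-fold lower under N-lim, where it lay under the floor. In the list of the Atg1 complex, which TORC1 restrains in autophagy, ATG13 rose by 0.47, ATG1 changed by -1.08 and ATG17 was not called.

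**Figure D4:**
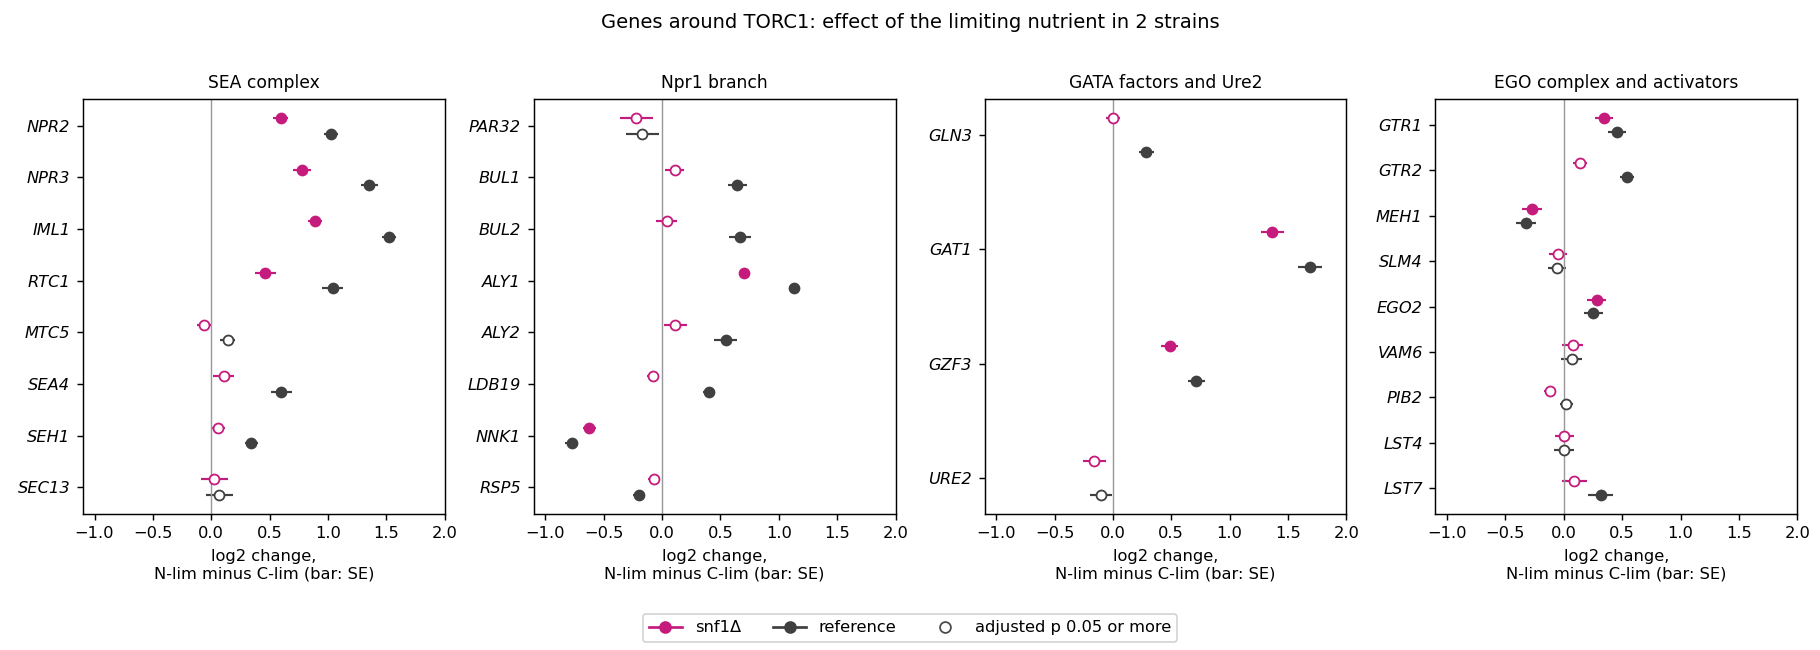
Log2 change under N-lim relative to C-lim (x axis; points, bars are standard errors) for 4 lists of genes around TORC1 in snf1Δ and the reference strain; open points have an adjusted p of 0.05 or more. IML1 and NPR3 reach 1.52 and 1.35 in the reference strain, and DAL80, at 8.02 in the reference strain, is left out of the GATA panel because it lies outside the axis.

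Markers of mating type moved with the medium in the same cultures. All 7 a-specific genes rose under N-lim in each of the 4 strains. Their mean log2 level per array lay between 11.1 and 11.2 under N-lim and between 10.3 and 10.5 under C-lim in snf1Δtor1Δ, and between 11.2 and 11.3 under N-lim and between 8.62 and 8.71 under C-lim in tor1Δ. It lay between 11.01 and 11.06 under N-lim and between 10.1 and 10.3 under C-lim in snf1Δ, and between 11.3 and 11.4 under N-lim and between 8.44 and 8.47 under C-lim in the reference strain. None of the 7 lay under the floor in any group. Of the 4 alpha-specific genes, MF(ALPHA)1, MF(ALPHA)2 and SAG1 were called higher and STE3 lower under N-lim in the reference strain. MF(ALPHA)2 lay under the floor in every group, so its call is a difference between floor values. The mean level of the 4 genes, which includes MF(ALPHA)2, lay there between 6.60 and 6.75 under N-lim and between 4.53 and 4.74 under C-lim. In the deletion strains that mean level lay between 5.96 and 6.29 under N-lim and between 4.54 and 5.15 under C-lim. The part of these markers in the changes of the TORC1 genes was not tested.

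The TORC1 genes were finally compared by profile, as a description over arrays that share their groups. TOR1 correlated with NPR1 at 0.953 and with SCH9 at 0.941 over the 12 arrays that carry it, and KOG1 with SCH9 at 0.910 over all 24. LST8 correlated with NPR1 at -0.592. Among 5148 genes off the floor that are not of the 10, those most like TOR1 over 12 arrays were THI80 (Pearson r = 0.986), TRK1 (0.985) and ELM1 (0.985). Over 24 arrays those most like KOG1 were PNP1 (0.967), YLR177W (0.967) and VMA5 (0.966), and those most like SCH9 were RIM101 (0.962), ASG7 (0.958), an a-specific gene, and TDA7 (0.956). NPR1 was most like YLR460C (0.983), PAU4 (0.981) and DAL7 (0.980). The best matches were weaker for TCO89, with MAG2 (0.930), HSE1 (0.927) and UBP3 (0.921), and for LST8, with GMH1 (0.897), ATG10 (0.882) and TPM2 (0.876).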

How the data were processed

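Per the submitters' processing notes, the authors used RMA and affy; the deposited values are on the log2 scale. Versions, and which arrays were normalized together, are not stated there. The table has 5716 probe sets. The platform annotation names 1 gene for 5498 of them and leaves 218 unnamed here. Where a gene had several probe sets (47 genes), the brightest was kept, for 5449 genes in all; RefSeq's R64 table updated 12 symbols. A model of 8 group means over the 24 arrays was fitted with limma 3.58.1 (R 4.3.3; 16 residual degrees of freedom). From it 19 comparisons were drawn, each adjusted over all genes. The 10 genes and the lists around them were chosen with earlier results of these data known. All 10 genes were named; of each list, up to 4 called genes with the largest change, or all where 5 or fewer were called. Profiles were compared for genes whose group means spanned at least 0.5, naming the 3 most alike. Group means under the floor, set at log2 3 after the values were seen, give folds only as bounds.

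Replicate numbers come from the sample titles. Deviations from group means correlated for every equal number between the 2 media in the reference strain (0.233 to 0.374) and in snf1Δtor1Δ (0.123 to 0.201) and between snf1Δ and the reference strain under N-lim (0.170 to 0.282). These were treated as paired only in a further fit with the number as a block. The main fit, which gave the reported standard errors and adjusted p-values, had no block. For the TOR1 rise in the reference strain the adjusted p was 1.06e-11 without the block and 0.00112 with it. Equal numbers also correlated between reference C-lim arrays and N-lim arrays of snf1Δ (0.26 to 0.39) and tor1Δ (0.234 to 0.402). Between snf1Δ and reference C-lim arrays they correlated negatively (-0.307 and -0.295). Alternatives were 2 further scalings (1 median for all arrays, or a further quantile normalization), the mean of probe sets, leaving out dim or floor genes, a trended robust fit, fitting the groups of a comparison alone, replicate blocks, and leaving out each array. The fit was tested on simulated data. The number of arrays limits the precision.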

Additional observations from a re-analysis of the deposited data

Results flagged for a closer look

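In 8 results the effect of a deletion differed between the media, or that of the double deletion from the sum of the single ones, by a test of the difference itself. The effect of the medium (N-lim minus C-lim) was smaller in snf1Δ than in the reference strain for TOR1 (-0.40), KOG1 (-0.63) and SCH9 (-0.55). In snf1Δtor1Δ it was smaller or more negative than in the reference strain for KOG1 (-0.48), LST8 (-0.52) and SCH9 (-0.61) and larger for NPR1 (0.23). SCH9 under C-lim lay 0.31 above the sum of the single deletions. The NPR1 call was lost in 7 of 20 alternatives and this SCH9 call in 10 of 20.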

How the results depend on the processing

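Of 176 results for single genes, 59 were called, and 34 of these were called in every one of the alternatives run for them. Of the 117 not called, 102 were called in none. No result changed direction where it was called as reported or in the alternative. Some results that were not called did change sign. For SIT4 under N-lim in the reference strain the change was 0.13 as reported and -0.03 at the lowest with 1 array left out. The counts of called genes that moved by over 1.5 times were as follows. With arrays set to 1 median, 5 were called for the medium in the reference strain (8 as reported), 0 for snf1Δtor1Δ against snf1Δ under N-lim (3 as reported), 1 for snf1Δtor1Δ against tor1Δ under N-lim (2 as reported) and 0 for the departure from the sum under C-lim (1 as reported). A further quantile normalization gave 1, 1 and 0 for the last 3. With only the groups of a comparison fitted, snf1Δtor1Δ gave 0 against the reference strain under N-lim (2 as reported), 1 against snf1Δ in each medium (3 as reported), 5 against tor1Δ under C-lim (3 as reported) and 0 against tor1Δ under N-lim. Without dim genes, which removes TOR1, snf1Δ gave 1 of 9 genes against the reference strain under N-lim (3 as reported). With single arrays left out, the counts ran from 1 to 2 for snf1Δ against the reference strain under N-lim, and for snf1Δtor1Δ from 0 to 2 against the reference strain under N-lim, 1 to 4 against snf1Δ under N-lim and 1 to 2 against tor1Δ under N-lim. For the departure from the sum they ran from 0 to 2 under C-lim and 0 to 1 under N-lim. With the replicate number as a block in the paired comparisons, 7 genes were called for the medium in the reference strain, 5 in snf1Δtor1Δ and 2 for snf1Δ against the reference strain under N-lim; beyond the 4 calls given in the results, the block changed none. Between tor1Δ and the reference strain under N-lim, 2 of 3 equal numbers correlated above 0.1, and the block gave 0 calls among the 9 genes and 7 over all genes. A random block (correlation 0.0453) changed no count by over 1.5 times. Of 487 called changes of the 73 pathway genes, 336 held in every alternative and 0 reversed.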
